A study of Arabidopsis thaliana with 6 samples.

Results

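The comparison of the plant hormone ethylene, given as a gas, with hydrocarbon-free air was made in the wild type Col-0 of Arabidopsis thaliana. Its members were chosen by the array titles, and 4 of the 6 arrays in the series belong to it, 2 with ethylene and 2 with air. All plants are labelled as 3 weeks old, the ethylene dose is labelled as 10 ppm, and the growth protocol has seedlings on foil-wrapped plates that were later moved to soil. The titles of the ethylene arrays give an exposure of 24 h, whereas their characteristics and the design text give 4 h, so the time behind every difference below is not settled by the labels. The other 2 arrays, of the line amiR-ETP1/2 with an artificial microRNA against ETP1 and ETP2, carry no label of a gas treatment and entered the fit only to estimate the spread.

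Ethylene is sensed at the endoplasmic reticulum by receptors that keep the pathway off when no gas is bound. Binding releases the membrane protein EIN2, and the transcription factor EIN3 then accumulates and switches target genes. In leaves the hormone is known for speeding up senescence, the programme in which chloroplasts are taken apart and their nitrogen is exported, and in growing organs for limiting cell expansion.

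Levels are the deposited values, 1 per probe set and array, and were taken as log2 from their range, so a difference of 1 is 2-fold and every fold rests on this reading. A difference is the mean of the ethylene arrays minus the mean of the air arrays (n = 2 arrays each) and is given with the standard error (SE) of the limma model. A gene is called when its Benjamini-Hochberg adjusted p over 22746 probe sets is under 0.05, and "rose" and "fell" are used for called genes alone. Of all probe sets, 36.0% were called, 18.9% higher and 17.1% lower. A change of at least 2-fold was called for 21.4%, with 11.1% higher and 10.3% lower. The 2 ethylene arrays lay entirely above or below the 2 air arrays for 66.4% of probe sets. Of 13286 genes with 1 named probe set each, 31.7% were called, 17.4% higher and 14.4% lower, and these shares are the background for the lists below. The share called depended on the level, so this background is low for lists of genes at higher levels. Among probe sets with a mean of 5 to 6, 33.4% were called higher and 25.1% lower. From 6 to 8 the shares were 34.4% and 34.6%. Among 7844 probe sets with a mean under 4, 2.31% were called higher and 1.34% lower, and among 364 with a mean of 10 or more, 21.7% were called higher and 53.8% lower.

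**Figure D1:**
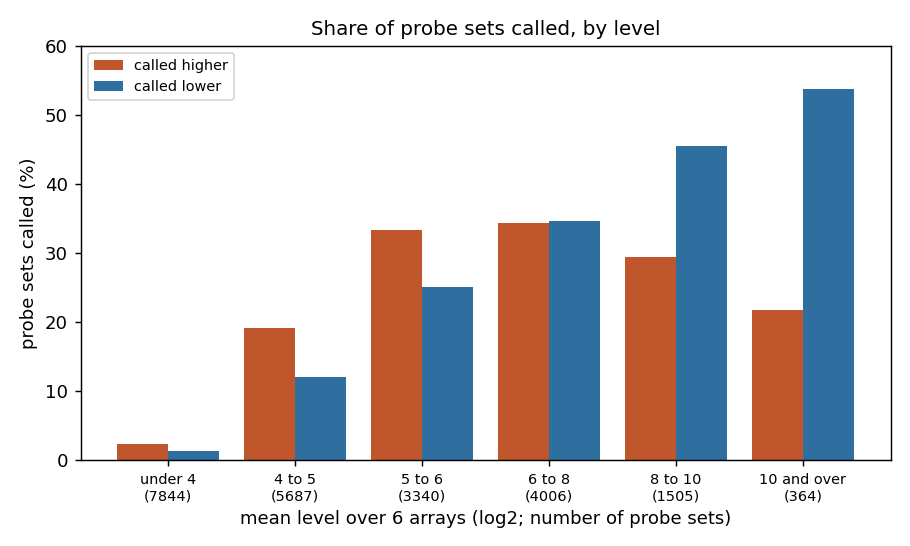
Share of probe sets called higher (orange bars) and lower (blue bars) with ethylene, in percent, for 6 ranges of the mean log2 level over 6 arrays. Calls were rare under a level of 4, with 2.31% higher and 1.34% lower, and leaned to lower at a level of 10 and over, with 21.7% higher and 53.8% lower.

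The labels name no organ. Of the genes that define green tissue, the Rubisco activase gene RCA had levels of 13.31 and 13.21 in air and 9.12 and 9.16 with ethylene. The 2 root markers measured, the root hair expansin genes EXPA7 and EXPA18, had levels between 3.76 and 5.48 on the 4 arrays and were not called. The control probe sets along the actin transcript differed between the groups, but not in one direction. The 3' signal was above that of the middle by 0.32 and 0.83 log2 units in air and by 2.17 and 2.02 with ethylene, and it exceeded the 5' signal by 4.04 and 4.68 in air and by 3.40 and 3.51 with ethylene. The 3' to 5' difference of GAPDH overlapped, with 0.77 and 1.76 in air and 1.02 and 1.76 with ethylene. The part of such end-to-end differences in the results below was not tested. Over all probe sets the levels of the air arrays correlated at 0.987, those of the ethylene arrays at 0.993, and arrays of different treatment at 0.791 to 0.810 (Pearson's r across probe sets, none of them a replicate). In such bulk samples fewer cells of a type and less RNA per cell cannot be told apart.

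Nuclear genes for the chloroplast fell across functions that go well beyond the antennae. All 10 measured antenna and photosystem subunits fell (median difference -1.94), and so did 15 of 19 genes of thylakoid assembly and electron flow, 8 of 12 of chlorophyll synthesis, 7 of 7 of carbon fixation and photorespiration and 10 of 12 of plastid division, protein folding and proteolysis. Over all named genes the share that fell was 14.4%, but among probe sets with a mean level of 10 or more it was 53.8%. The antenna list had median levels of 12.17 and 12.03 in air, and the carbon fixation list 11.49 and 11.42. The fall of light-harvesting and carbon fixation genes was known from these data when the lists were drawn up.

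The 3 measured LHCB4 genes, which encode isoforms of the minor antenna protein CP29, fell by different amounts. LHCB4.1 (AT5G01530) had levels of 12.90 and 12.81 in air and 11.22 and 11.35 with ethylene, a fall of 2.96-fold (log2 change -1.56, SE 0.12, adjusted p = 5.54e-05). LHCB4.3 (AT2G40100) had levels of 8.14 and 8.46 in air and 4.70 and 4.58 with ethylene and fell 12.6-fold (log2 change -3.65, SE 0.15, adjusted p = 3.28e-06). The groups did not overlap for either gene, nor for 66.4% of all probe sets. A like gap separated the LIL3 genes, whose products hold enzymes of chlorophyll synthesis at the membrane. LIL3:1 (AT4G17600) went from 9.53 and 9.73 to 5.65 and 5.93 and fell 14.3-fold, whereas LIL3:2 (AT5G47110) went from 9.67 and 9.39 to 8.56 and 8.51 and fell 2-fold. The difference between paralogs was not tested.

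Among the genes that build thylakoids, CaS (AT5G23060), the calcium-sensing thylakoid protein, had levels of 10.15 and 10.26 in air and 5.75 and 5.20 with ethylene and fell 26.5-fold (log2 change -4.73, SE 0.19, adjusted p = 2.69e-06). HCF101 (AT3G24430), a scaffold that delivers iron-sulfur clusters to photosystem I, had levels of 9.02 and 9.01 in air and 4.63 and 4.96 with ethylene and fell 18.6-fold (log2 change -4.22, SE 0.16, adjusted p = 2.36e-06). CCB3 (AT5G36120), needed to attach a haem to cytochrome b6, fell 8.39-fold, and the CURT1C gene (AT1G52220), of a family that bends grana membranes, fell 6.15-fold. These genes had no overlap between the groups, as had 66.4% of all probe sets. ATPC1 (AT4G04640), the gamma subunit of the plastid ATP synthase, fell 4.22-fold. The members not called included PGRL1B (AT4G11960), of cyclic electron flow, with levels of 7.90 and 7.84 in air and 8.11 and 7.97 with ethylene (adjusted p = 0.441), and CYTC6A (AT5G45040), a cytochrome c6-like protein (difference -0.24, adjusted p = 0.317).

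Genes of chlorophyll synthesis fell at early and late steps. GSA1 (AT5G63570), which makes aminolevulinic acid, fell 3.25-fold, and HEMB1 (AT1G69740), which condenses it, fell 2.48-fold. The uroporphyrinogen decarboxylase genes HEME1 (AT3G14930) and HEME2 (AT2G40490) fell 8.13-fold and 8.55-fold, from 9.27 and 9.47 in air to 6.19 and 6.36 with ethylene for HEME2. In the magnesium branch CHLI2 (AT5G45930), a subunit of magnesium chelatase, had levels of 7.56 and 7.40 in air and 4.71 and 4.45 with ethylene and fell 7.47-fold (log2 change -2.90, SE 0.15, adjusted p = 8.54e-06). CHLM (AT4G25080), the methyltransferase after it, fell 4.76-fold, and the geranylgeranyl reductase gene AT1G74470, which supplies the phytol tail, had levels of 12.35 and 12.21 in air and 9.63 and 9.65 with ethylene and fell 6.25-fold. The 1 member that rose was HEMA2 (AT1G09940), a glutamyl-tRNA reductase isoform, by 1.38-fold from 4.85 and 4.90 to 5.35 and 5.34 (adjusted p = 0.0158). HEMA3, hemb2 and hemf2 had levels between 3.45 and 4.52 on the 4 arrays and were not called. HEMA2 lost its call without ethylene replicate 1 (adjusted p = 0.0784), ethylene replicate 2 (adjusted p = 0.0751) or air replicate 1 (adjusted p = 0.0615).

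In carbon fixation PRK (AT1G32060), the kinase that regenerates the acceptor of carbon dioxide, had levels of 12.14 and 12.22 in air and 9.24 and 9.44 with ethylene and fell 7.15-fold (log2 change -2.84, SE 0.13, adjusted p = 4.62e-06). TRXF2 (AT5G16400), the thioredoxin that activates Calvin cycle enzymes in light, had levels of 9.35 and 8.98 in air and 5.78 and 6.08 with ethylene and fell 9.41-fold (log2 change -3.23, SE 0.17, adjusted p = 8.45e-06). The NADP-dependent malate dehydrogenase gene AT5G58330, another thioredoxin target, fell 5.47-fold. HPR (AT1G68010), the peroxisomal hydroxypyruvate reductase of photorespiration, fell 1.79-fold, from 12.22 and 12.03 to 11.22 and 11.34. All 7 members of this list had ethylene levels below both air levels, and the groups did not overlap for 66.4% of all probe sets.

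Plastid upkeep fell as well. FTSZ2-2 (AT3G52750), which forms the division ring, had levels of 7.73 and 7.60 in air and 3.74 and 3.67 with ethylene and fell 15.6-fold (log2 change -3.96, SE 0.12, adjusted p = 1.19e-06), while its paralog FTSZ2-1 (AT2G36250) fell 3.15-fold. The chaperonin genes Cpn60beta2 (AT3G13470) and Cpn60beta4 (AT1G26230) fell 13.5-fold and 6.87-fold. CLPP4 (AT5G45390), a plastid Clp protease subunit, fell 2.48-fold (adjusted p = 0.000104), and NCLPP7 (AT5G23140), a mitochondrial one, rose 1.55-fold, from 6.45 and 6.42 to 7.05 and 7.08 (adjusted p = 0.0132). Genes for organelle RNA processing had 4 of 14 members lower and 0 higher (median -0.08), beside 14.4% and 17.4% of all named genes. Most of the 14 had levels under 5 on all 4 arrays. PPR596 (AT1G80270) had the largest fall among these 14 genes, 2.91-fold. NCLPP7 was not called without ethylene replicate 1 (adjusted p = 0.0714), ethylene replicate 2 (adjusted p = 0.0837) or air replicate 2 (adjusted p = 0.056). The number of falls in organelle RNA processing was 2 without ethylene replicate 2.

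Probe sets of the chloroplast's own genome had more rises than falls. How far their signals follow the amount of plastid RNA was not tested. Of 69 plastid-encoded genes, 38 rose and 3 fell (background 17.4% and 14.4%), with a median difference of 0.84. The median level of the 69 was 6.46 and 6.01 in air and 7.23 and 7.46 with ethylene. petL (ArthCp040), a small subunit of the cytochrome b6f complex, had levels of 5.47 and 5.80 in air and 9.57 and 9.62 with ethylene and rose 15.5-fold (log2 change 3.96, SE 0.16, adjusted p = 2.71e-06). ndhA (ArthCp079) had levels of 5.54 and 4.79 in air and 8.36 and 8.48 with ethylene and rose 9.56-fold, and ndhE (ArthCp076) had levels of 3.57 and 3.66 in air and 6.41 and 7.05 with ethylene and rose 8.69-fold. Both encode membrane subunits of the NDH complex, and their ethylene levels lay well above those in air. ndhI (ArthCp078) rose 8.09-fold, from 9.30 and 7.93 in air. The 3 that fell were atpB (ArthCp029), the beta subunit of the ATP synthase (12.34 and 11.94 in air, 9.72 and 9.72 with ethylene, 5.34-fold), petA (ArthCp035), of the cytochrome b6f complex, by 3.13-fold, and cemA (ArthCp034), an envelope protein, by 2.2-fold. cemA was named after its values were seen. psbM (ArthCp016), a small subunit of photosystem II, rose 1.79-fold from 12.49 and 12.49 to 13.27 and 13.39. atpE (ArthCp028) and rpoA (ArthCp055) had differences of 0.50 and 0.22 and were not called (adjusted p = 0.0593 and 0.221). cemA missed the threshold without ethylene replicate 1 (adjusted p = 0.136), ethylene replicate 2 (adjusted p = 0.125) or air replicate 1 (adjusted p = 0.115).

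Grouped by the first letters of their symbols, a grouping made after the values were seen, 9 of 10 ndh genes rose (median 1.87), as did 3 of 5 psa, 9 of 15 psb and 4 of 6 pet genes (medians 2.07, 1.26 and 1.67). Rises were counted in 2 of 7 rpl and 3 of 8 rps genes (medians 0.36 and 0.60) and in 1 of 4 rpo genes of the polymerase. Of all named genes 17.4% rose, and the groups were not tested against each other. The NDH complex is assembled from subunits of both genomes, and its nuclear list held 6 falls among 9 genes (median -1.33). Over all named genes 14.4% fell. NdhL (AT1G70760) fell 21.3-fold and NdhN (AT5G58260) went from 8.80 and 9.02 to 4.53 and 4.76, a fall of 19.3-fold (log2 change -4.27, SE 0.16, adjusted p = 1.97e-06). CRR42 (AT5G20935), an assembly factor of the complex, fell 8.41-fold, and NdhS (AT4G23890) had levels of 10.32 and 10.11 in air and 9.91 and 10.06 with ethylene and was not called (adjusted p = 0.346).

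The air arrays disagreed on the plastid genome, with array 1 above array 2 for 48 of the 69 genes. The counts were 45 higher and 2 lower without air replicate 1, and 32 higher and 8 lower without air replicate 2. Of 23 probe sets named for mitochondrial genes, 6 rose and 0 fell (median 0.19), beside 18.9% and 17.1% of all probe sets. Among the rises was cox1, a cytochrome c oxidase subunit, which rose 5-fold from 4.91 and 4.74 to 7.07 and 7.22. The mitochondrial group was formed after its values were seen, and how far its signals follow the amount of mitochondrial RNA was not tested.

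**Figure D2:**
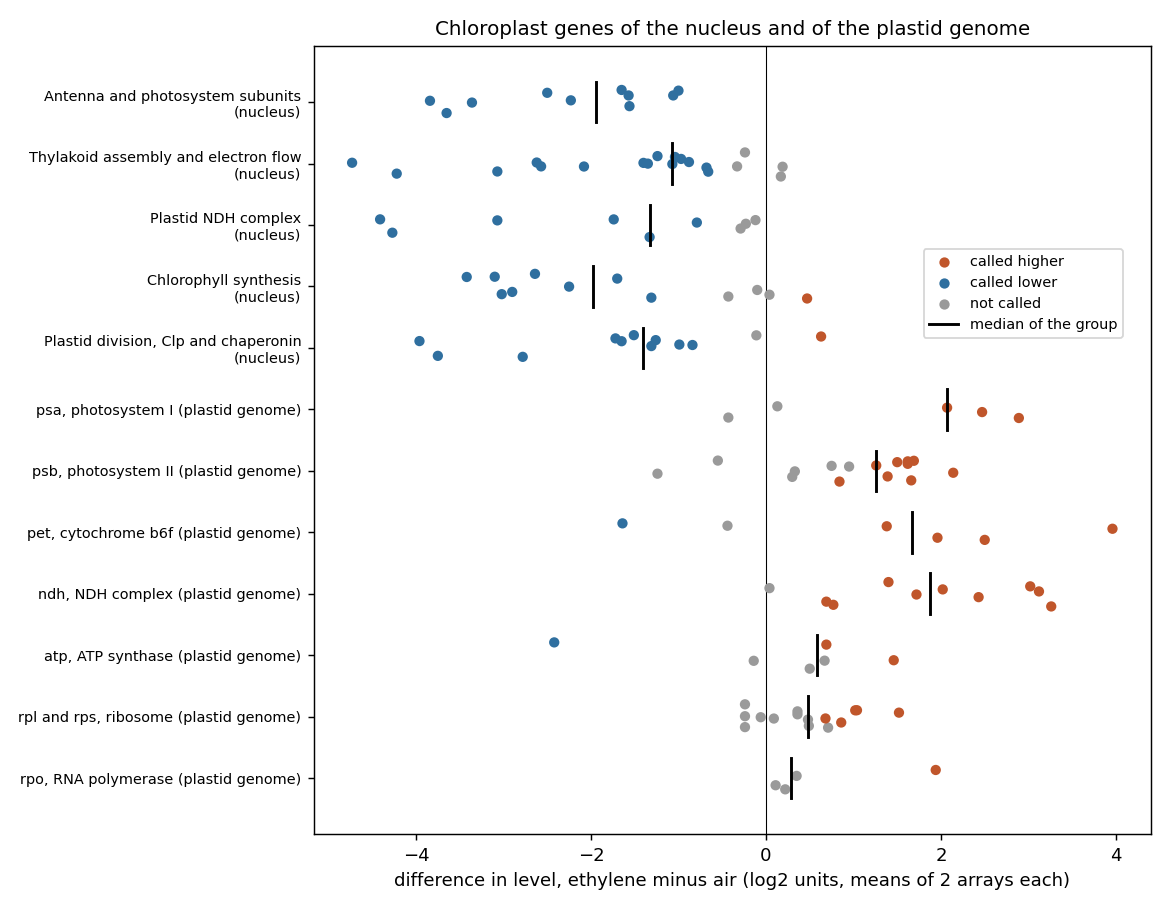
Difference in level between ethylene and air (log2 units, x axis) for single chloroplast genes, with nuclear lists above and plastid-encoded genes grouped by symbol below. Each point is 1 gene, coloured by call, and the black bar is the group's median; the medians of the 5 nuclear lists plotted lie between -1.98 and -1.07, and those of the 7 plastid-encoded groups plotted lie above 0. Carbon fixation (median -2.84) and organelle RNA processing (median -0.08) are not plotted, nor are plastid-encoded symbols of which only 1 or 2 genes were measured, where rbc (-0.23) and cem (-1.14) lie below 0.

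Redox genes moved in both directions, and so did the array as a whole. Over all named genes 17.4% rose and 14.4% fell. Among probe sets with a mean level of 6 to 8, 34.4% were called higher and 34.6% lower. In the list of thioredoxins and glutaredoxins (median levels 6.42 and 6.58 in air) 5 of 14 rose and 5 fell, near the shares at that level. Among peroxide and ascorbate genes 4 of 14 rose and 7 fell. Among the falls were the plastid genes NTRC (AT2G41680), a reductase fused to its thioredoxin (8.46 and 8.52 in air, 6.07 and 5.84 with ethylene, 5.79-fold) and TAPX (AT1G77490), the thylakoid ascorbate peroxidase (4.35-fold). The glutathione reductase gene of organelles, GR (AT3G54660), had levels of 9.77 and 9.70 in air and 7.67 and 7.46 with ethylene and fell 4.5-fold (log2 change -2.17, SE 0.13, adjusted p = 1.48e-05), while the cytosolic GR1 (AT3G24170) had levels of 8.76 and 8.34 in air and 8.67 and 8.92 with ethylene and was not called (adjusted p = 0.342). GRXC1 (AT5G63030), a cytosolic glutaredoxin, had levels of 6.26 and 6.67 in air and 9.76 and 9.72 with ethylene and rose 9.71-fold (log2 change 3.28, SE 0.19, adjusted p = 1.35e-05). ATMDAR2 (AT5G03630), a monodehydroascorbate reductase, rose 4.38-fold. Of the reductases that remove reactive carbonyls, the plastid AOR (AT1G23740) fell 12.5-fold and AER (AT5G16970) rose 3.28-fold. In thioredoxins and glutaredoxins the count of rises was 3 without ethylene replicate 1, air replicate 1 or air replicate 2 and 2 without ethylene replicate 2.

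Ascorbate synthesis moved in both directions. GME (AT5G28840), the epimerase at the start of the route from mannose, was singled out after its values were seen and rose 2.76-fold. VTC4 (AT3G02870), the phosphatase that makes L-galactose, had levels of 8.52 and 8.31 in air and 4.67 and 4.77 with ethylene and fell 13-fold (log2 change -3.70, SE 0.19, adjusted p = 8.24e-06). Of 5 methionine sulfoxide reductases, which repair oxidised protein, MSRB6 (AT4G04840) fell 21.2-fold beside MSRB5, and the other 3 were not called. In the tau class of glutathione transferases, enzymes that conjugate glutathione to foreign and reactive compounds, 1 of 11 rose and 3 fell. The shares over all named genes were 17.4% and 14.4%. GSTU18 (AT1G10360) had levels of 7.81 and 8.08 in air and 4.44 and 4.45 with ethylene and fell 11.3-fold (log2 change -3.50, SE 0.13, adjusted p = 2.47e-06), and GSTU16 (AT1G59700) went from 6.72 and 6.30 to 8.39 and 8.38, a rise of 3.65-fold. The 7 members not called had levels between 3.29 and 4.04 on the 4 arrays.

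Single carbon metabolism genes moved in both directions. Of 16 SWEET genes, which encode passive sugar carriers, 3 rose, 2 fell and 11 were not called. The shares that rose and fell over all named genes were 17.4% and 14.4%, so the SWEET counts lay near the background. The vacuolar fructose carriers fell, SWEET17 (AT4G15920) from 8.30 and 8.54 in air to 4.63 and 5.07 with ethylene (11.8-fold; log2 change -3.56, SE 0.21, adjusted p = 1.46e-05) and SWEET16 (AT3G16690) by 1.56-fold. SWEET2 (AT3G14770), also of the vacuole, had levels of 4.55 and 4.47 in air and 7.65 and 7.76 with ethylene and rose 9.16-fold (log2 change 3.19, SE 0.14, adjusted p = 4.44e-06). Among the sugar pumps of the vacuole TMT1 (AT1G20840) went from 5.20 and 4.55 to 7.53 and 8.02 and rose 7.46-fold, TMT2 (AT4G35300) went from 6.74 and 6.52 to 4.33 and 4.74 and fell 4.26-fold, and TMT3 was not called. The ethylene and air arrays did not overlap for SWEET2, SWEET17, TMT1 or TMT2, nor for 66.4% of all probe sets. Called rises in SWEET genes numbered 1 without ethylene replicate 1.

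Starch genes were mostly lower, with 4 of 7 down and 2 up, beside 14.4% and 17.4% of all named genes. SBE2.2 (AT5G03650), a branching enzyme, fell 8.47-fold, and DPE1 (AT5G64860), the plastid enzyme that rearranges short glucans, had levels of 7.37 and 7.08 in air and 4.76 and 4.73 with ethylene and fell 5.59-fold (log2 change -2.48, SE 0.16, adjusted p = 1.82e-05). Of 12 citric acid cycle and pyruvate dehydrogenase genes 6 were not called. IDH-V (AT5G03290), a subunit of the mitochondrial isocitrate dehydrogenase, had levels of 7.80 and 7.48 in air and 9.24 and 9.25 with ethylene and rose 3.04-fold (log2 change 1.61, SE 0.17, adjusted p = 0.000236). ATP-citrate lyase, the cytosolic enzyme that makes acetyl-CoA, had 1 of 4 genes higher and 2 lower. Of its A subunit genes ACLA-3 (AT1G09430) went from 6.98 and 6.64 to 9.39 and 9.41 (6.02-fold higher), ACLA-2 (AT1G60810) fell 2.25-fold and ACLA-1 (AT1G10670) was not called (adjusted p = 0.116), and the B subunit gene ACLB-1 (AT3G06650) fell 1.93-fold. ACLA-2 lost its call without ethylene replicate 1 (adjusted p = 0.112), ethylene replicate 2 (adjusted p = 0.107) or air replicate 1 (adjusted p = 0.0957). The number of rises in starch genes was 1 without ethylene replicate 1 or air replicate 2 and 0 without ethylene replicate 2. In starch genes the count of falls was 2 without ethylene replicate 1, air replicate 1 or air replicate 2. Called falls in ATP-citrate lyase numbered 1 without ethylene replicate 1, ethylene replicate 2 or air replicate 1.

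In the list of lipid mobilisation and gluconeogenesis 3 of 7 genes rose and 0 fell, beside 17.4% and 14.4% of all named genes. PPDK (AT4G15530), the pyruvate orthophosphate dikinase, had levels of 7.92 and 7.07 in air and 11.51 and 11.74 with ethylene and rose 17.5-fold (log2 change 4.13, SE 0.28, adjusted p = 2.42e-05). SDP1 (AT5G04040), a triacylglycerol lipase, had levels of 5.35 and 5.14 in air and 8.21 and 8.18 with ethylene and rose 7.72-fold (log2 change 2.95, SE 0.20, adjusted p = 2.45e-05), while SDP1-LIKE stayed between 3.58 and 3.75. PAHX (AT2G01490), which breaks down the phytol side chain of chlorophyll after its release, rose 4-fold. The glyoxylate cycle gene ICL (AT3G21720) had levels of 4.09 and 4.04 in air and 4.30 and 4.15 with ethylene and was not called (adjusted p = 0.437). In the list of energy-sensing kinases 2 of 5 genes rose and 1 fell, and all 3 called genes encode beta subunits of SnRK1. KINbeta3 (AT2G28060) went from 5.13 and 5.10 to 6.10 and 6.20 and rose 2.05-fold, and AKINBETA1 (AT5G21170) went from 6.96 and 6.44 to 10.46 and 10.53 and rose 13.9-fold, while KINbeta2 (AT4G16360) went from 6.55 and 6.49 to 5.94 and 5.96 and fell 1.48-fold. KINbeta2 was not called without ethylene replicate 1 (adjusted p = 0.11), ethylene replicate 2 (adjusted p = 0.1), air replicate 1 (adjusted p = 0.0826) or air replicate 2 (adjusted p = 0.063). The number of falls in the energy-sensing list was 0 without ethylene replicate 1, ethylene replicate 2 or air replicate 1.

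All 11 genes of the amino acid breakdown list rose, by a median of 3.81 log2 units, beside 17.4% of all named genes. Several of these rises were known when the list was drawn up, so the count is not independent support. Asparagine breakdown is in a separate list below. The 11 genes included the whole chain that passes electrons from branched-chain and lysine breakdown to the respiratory chain. ETFALPHA (AT1G50940) and ETFBETA (AT5G43430), the paired subunits of the electron transfer flavoprotein, had levels of 5.64 and 5.36 in air and 6.81 and 6.64 with ethylene and of 6.0 and 6.29 in air and 8.88 and 8.96 with ethylene. They rose 2.33-fold and 6.86-fold, and ETFQO (AT2G43400), which hands the electrons to ubiquinone, rose 22.3-fold. D2HGDH (AT4G36400), the hydroxyglutarate dehydrogenase that feeds this chain, had levels of 5.36 and 5.28 in air and 7.67 and 7.66 with ethylene and rose 5.09-fold (log2 change 2.35, SE 0.12, adjusted p = 6.85e-06). DELTA-OAT (AT5G46180), the ornithine aminotransferase, had levels of 5.34 and 5.13 in air and 8.50 and 8.54 with ethylene and rose 9.78-fold (log2 change 3.29, SE 0.18, adjusted p = 8.82e-06). ALDH6B2 (AT2G14170), the methylmalonate semialdehyde dehydrogenase of valine breakdown, rose 7.36-fold. For all 11 genes both ethylene arrays lay above both air arrays, and the groups did not overlap for 66.4% of all probe sets.

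All 8 aldehyde dehydrogenases were called, ALDH6B2 among them, 5 higher and 3 lower. ALDH7B4 (AT1G54100), which detoxifies aldehydes under osmotic stress, had levels of 7.81 and 7.24 in air and 11.51 and 11.72 with ethylene and rose 17.1-fold (log2 change 4.09, SE 0.21, adjusted p = 6.88e-06), and ALDH22A1 (AT3G66658) fell 2.32-fold. In the ureide, urea and asparagine list ASPGB1 (AT3G16150), an asparaginase, rose 1.78-fold, UGLYAH (AT4G17050) fell 1.46-fold, and 4 of 6 were not called. Of 12 transporters of the nitrate and peptide families 0 rose and 3 fell, beside 17.4% and 14.4% of all named genes. The largest fall was that of NPF6.4 (AT3G21670), from 9.43 and 8.99 to 5.49 and 5.78 (11.9-fold). ASPGB1 missed the threshold without ethylene replicate 2 (adjusted p = 0.154), air replicate 1 (adjusted p = 0.0982) or air replicate 2 (adjusted p = 0.051). UGLYAH lost its call without ethylene replicate 1 (adjusted p = 0.0502) or ethylene replicate 2 (adjusted p = 0.0628).

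Sulfur genes moved in both directions. SIR (AT5G04590), the sulfite reductase, APS3 (AT4G14680), an ATP sulfurylase, and MMT (AT5G49810), which methylates methionine for transport, fell 2.67-fold, 3.15-fold and 2.61-fold. STR18 (AT5G66170), a rhodanese-type sulfurtransferase, had levels of 4.37 and 4.59 in air and 10.10 and 10.02 with ethylene and rose 47.8-fold (log2 change 5.58, SE 0.21, adjusted p = 2.28e-06). SUFE2 (AT1G67810), an activator of the plastid cysteine desulfurase, had levels of 4.07 and 4.15 in air and 8.37 and 8.81 with ethylene and rose 22.3-fold (log2 change 4.48, SE 0.17, adjusted p = 2.1e-06). The desulfurase itself, CPNIFS (AT1G08490), had levels of 6.53 and 6.63 in air and 6.83 and 6.77 with ethylene and was not called (adjusted p = 0.335). In all 4 of 12 rose and 4 fell, beside 17.4% and 14.4% of all named genes. The median levels of the list in air were 7.40 and 7.15. Among probe sets with a mean of 6 to 8, 34.4% were called higher and 34.6% lower, and the counts lay near these shares.

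The autophagy rise covered every measured gene of the ATG8 family, the ubiquitin-like proteins that coat the forming vesicle. All 11 measured genes of the list rose, the 9 ATG8 genes among them, with a median difference of 1.78 (background 17.4%), and a part of this was known when the list was drawn up. ATG8B (AT4G04620) had levels of 5.41 and 5.37 in air and 9.51 and 9.38 with ethylene and rose 16.6-fold. ATG8F (AT4G16520) had levels of 9.61 and 9.42 in air and 10.79 and 10.61 with ethylene and rose 2.27-fold (log2 change 1.18, SE 0.16, adjusted p = 0.000735), the smallest ATG8 change. APG8A (AT4G21980) rose 6.52-fold and APG8H (AT3G15580) rose 2.85-fold, from 9.0 and 9.22 to 10.59 and 10.66. Of the genes outside the family, ATG3 (AT5G61500), which joins ATG8 to lipid, had levels of 7.08 and 6.77 in air and 7.97 and 7.97 with ethylene and rose 2.07-fold (log2 change 1.05, SE 0.16, adjusted p = 0.00141), and ATG101 (AT5G66930), of the complex that starts a vesicle, rose 3.43-fold. None of these 11 genes had overlapping groups, and neither had 66.4% of all probe sets.

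**Figure D3:**
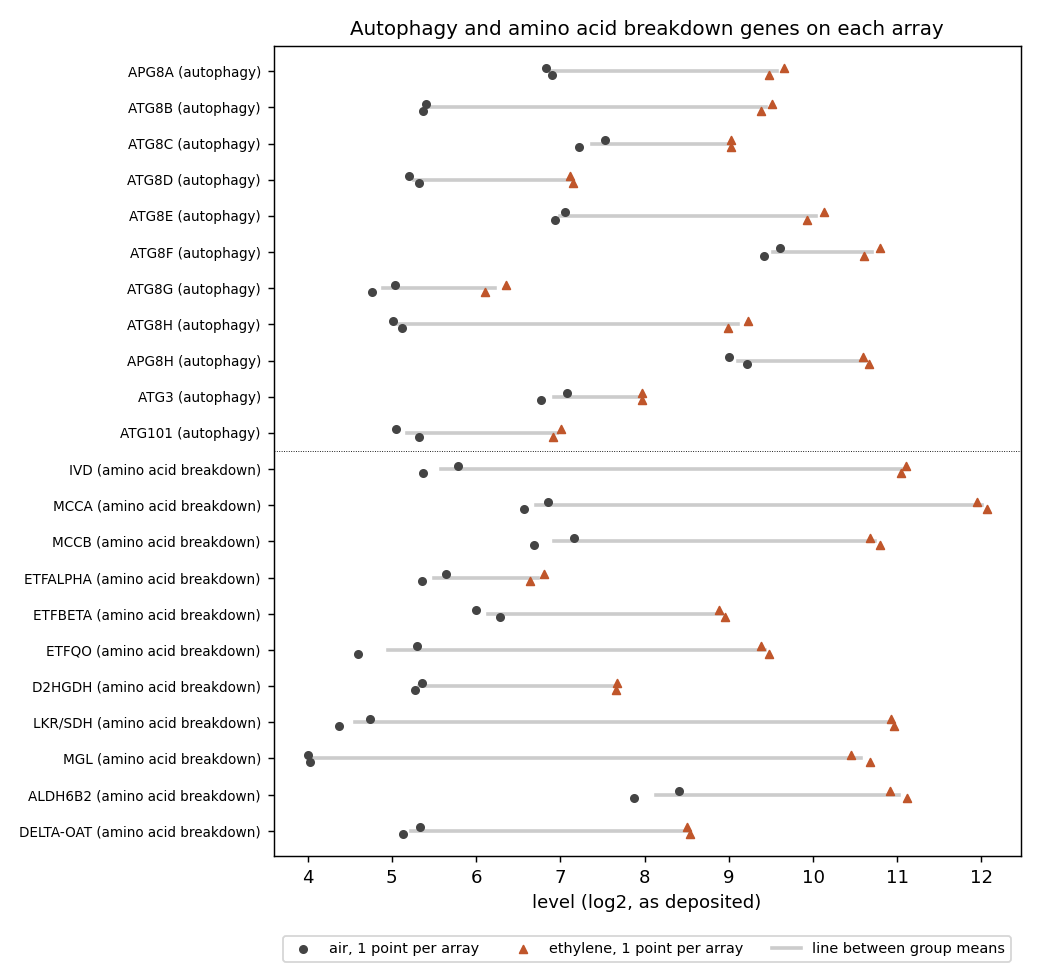
Log2 level on each air array (black circles) and each ethylene array (orange triangles) for 11 autophagy genes and 11 amino acid breakdown genes, with a line between the group means. Both ethylene arrays lie above both air arrays for all 22 genes, and the groups do not overlap for 66.4% of all probe sets. The smallest autophagy rise is that of ATG3 (1.05) and the smallest of amino acid breakdown that of ETFALPHA (1.22).

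Endosomal sorting, which also delivers cargo to the vacuole, rose in 7 of 15 measured genes and fell in 2 (median 0.77). Of all named genes 17.4% rose and 14.4% fell. The list had median levels of 5.86 and 5.72 in air. Among probe sets with a mean of 5 to 6, 33.4% were called higher and 25.1% lower. VPS60.1 (AT3G10640) had levels of 4.64 and 4.93 in air and 7.98 and 7.84 with ethylene and rose 8.71-fold (log2 change 3.12, SE 0.16, adjusted p = 6.85e-06), while its paralog VPS60.2 (AT5G04850) rose 2.14-fold. ELC (AT3G12400), the ubiquitin receptor of the first ESCRT complex, had levels of 4.70 and 4.78 in air and 7.10 and 7.29 with ethylene and rose 5.49-fold (log2 change 2.46, SE 0.17, adjusted p = 2.99e-05). VPS2.2 (AT5G44560) fell 2.29-fold, and VPS2.1 (AT2G06530) had levels of 7.27 and 7.09 in air and 7.75 and 7.67 with ethylene and was not called (adjusted p = 0.0796). ALPHA-VPE (AT2G25940), a vacuolar processing enzyme of vegetative tissue, rose 3.09-fold from 3.84 and 3.58 to 5.17 and 5.50, and GAMMA-VPE (AT4G32940) had levels of 9.32 and 8.90 in air and 9.47 and 9.65 with ethylene and was not called (adjusted p = 0.187). In endosomal sorting the count of falls was 1 without ethylene replicate 1, ethylene replicate 2 or air replicate 2.

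Of 29 serine carboxypeptidase-like genes 3 rose and 9 fell, beside 17.4% and 14.4% of all named genes. The falls were led by scpl29 (AT4G30810) (7.89 and 7.76 in air, 5.12 and 4.64 with ethylene, 7.68-fold), SCPL45 (AT1G28110) (6.37-fold) and scpl46 (AT2G33530) (5.47-fold). Among subtilases SBT1.3 (AT5G51750) had levels of 7.47 and 7.32 in air and 4.48 and 4.65 with ethylene and fell 7.12-fold, and SBT3.5 (AT1G32940) rose 4.81-fold from 4.88 and 4.34 to 6.65 and 7.10. Called rises in the carboxypeptidase-like genes numbered 1 without ethylene replicate 2 or air replicate 2.

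Of 12 ubiquitin-conjugating enzymes 6 rose and 2 fell, beside 17.4% and 14.4% of all named genes. The rises included UBC16 (AT1G75440), from 4.60 and 4.82 to 7.07 and 7.07 (5.14-fold) and UBC32 (AT3G17000), which acts in the breakdown of misfolded proteins of the endoplasmic reticulum, by 3.35-fold. UBC28 (AT1G64230) had levels of 10.07 and 9.73 in air and 11.52 and 11.59 with ethylene and rose 3.17-fold (log2 change 1.66, SE 0.20, adjusted p = 0.000493). The falls were those of UBC20 (AT1G50490), by 1.77-fold, and UBC30 (AT5G56150), by 1.53-fold. Of 9 U-box ligases 4 rose and 0 fell, with PUB43 (AT1G76390) going from 4.26 and 4.51 to 6.13 and 5.99 (3.2-fold). UBC20 was not called without ethylene replicate 1 (adjusted p = 0.119), ethylene replicate 2 (adjusted p = 0.0961) or air replicate 2 (adjusted p = 0.102). UBC30 missed the threshold without ethylene replicate 1 (adjusted p = 0.0712), ethylene replicate 2 (adjusted p = 0.154), air replicate 1 (adjusted p = 0.0891) or air replicate 2 (adjusted p = 0.0714). The number of falls in the ubiquitin-conjugating enzymes was 0 without ethylene replicate 1, ethylene replicate 2 or air replicate 2 and 1 without air replicate 1.

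Quality control in the endoplasmic reticulum held both directions. BZIP60 (AT1G42990), a transcription factor of the unfolded protein response, had levels of 6.99 and 7.46 in air and 8.56 and 8.45 with ethylene and rose 2.43-fold (log2 change 1.28, SE 0.22, adjusted p = 0.00263). DER2.1 (AT4G21810), of the channel that exports misfolded proteins, had levels of 7.05 and 6.58 in air and 8.98 and 9.05 with ethylene and rose 4.61-fold (log2 change 2.20, SE 0.22, adjusted p = 0.000172), and DER2.2 (AT4G04860) rose 3.02-fold. The calreticulin gene CRT1b (AT1G09210) had levels of 8.59 and 8.62 in air and 6.17 and 6.30 with ethylene and fell 5.16-fold (log2 change -2.37, SE 0.17, adjusted p = 3.83e-05), and the J-domain protein ATERDJ2B (AT4G21180) fell 2.24-fold. Over the list 5 of 13 rose and 3 fell, beside 17.4% and 14.4% of all named genes. Cytosolic chaperones were mostly not called (8 of 12), but Hsp70-2 (AT5G02490) rose 6.08-fold, and of the Fes1 exchange factors Fes1A (AT3G09350) and Fes1C (AT5G02150) rose 2.72-fold and 7.07-fold while Fes1B (AT3G53800) went from 7.24 and 7.35 to 5.59 and 5.45. In the endoplasmic reticulum list the count of rises was 3 without ethylene replicate 2.

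Of 20 cell division genes 11 fell and 1 rose (median -0.50), against a background of 14.4% lower. 3xHMG-box2 (AT4G23800), a chromosome protein of mitosis, had levels of 6.33 and 6.09 in air and 4.25 and 4.50 with ethylene and fell 3.58-fold (log2 change -1.84, SE 0.15, adjusted p = 6.41e-05). PRL (AT4G02060), a subunit of the replicative helicase, fell 2.89-fold from 5.50 and 5.33 to 3.83 and 3.94, and BUB3.1 (AT3G19590), of the spindle checkpoint, fell 2.25-fold. The exception was SAMBA (AT1G32310), a regulator of the anaphase-promoting complex, which had levels of 5.14 and 5.29 in air and 5.86 and 5.84 with ethylene and rose 1.55-fold (log2 change 0.63, SE 0.12, adjusted p = 0.00559).

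The histone H2B genes HTB1 (AT1G07790) and HTB2 (AT5G22880) fell 3.52-fold and 7.68-fold, the latter from 7.67 and 7.78 to 4.55 and 5.01, and HTB4 (AT5G59910) had levels of 9.09 and 8.90 in air and 8.76 and 8.34 with ethylene and was not called (adjusted p = 0.0937). HIS1-3 (AT2G18050), a linker histone known as drought-induced, had levels of 5.44 and 5.42 in air and 8.31 and 8.33 with ethylene and rose 7.41-fold (log2 change 2.89, SE 0.50, adjusted p = 0.00303), and HON4 (AT3G18035), with a linker-histone domain, rose 2.53-fold. For the processing of ribosomal RNA, 6 of 14 genes fell and 3 rose, beside 14.4% and 17.4% of all named genes. DIM1B (AT5G66360), named as a methyltransferase of the small ribosomal RNA, had levels of 5.06 and 4.91 in air and 7.46 and 7.43 with ethylene and rose 5.48-fold, and RBL (AT3G55510) and AT5G14520 fell 2.12-fold and 2.35-fold. HON4 lost its call without ethylene replicate 2 (adjusted p = 0.0944). The difference of HON4 was 0.86 without air replicate 2. Called falls in ribosomal RNA processing numbered 3 without ethylene replicate 2.

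Of 12 tubulin and SPIRAL1 family genes 7 fell and 1 rose, beside 14.4% and 17.4% of all named genes. The list had median levels of 7.46 and 7.34 in air. Among probe sets with a mean of 6 to 8, 34.6% were called lower and 34.4% higher. TUB5 (AT1G20010) had levels of 8.28 and 8.07 in air and 4.86 and 5.30 with ethylene and fell 8.54-fold (log2 change -3.09, SE 0.19, adjusted p = 1.59e-05), and TUA6 (AT4G14960) had levels of 10.32 and 10.05 in air and 7.99 and 7.77 with ethylene and fell 4.93-fold (log2 change -2.30, SE 0.15, adjusted p = 2.39e-05). TUA1 (AT1G64740), known for its expression in pollen, went from 6.34 and 5.65 to 7.96 and 7.95 and rose 3.88-fold. PLIM2b, a gene of a pollen-rich LIM family, also rose, from 4.77 and 4.97 to 6.22 and 6.40 (2.71-fold), while PLIM2a, AtVEX1 and the seed oleosin gene OLEO3 had levels between 3.55 and 4.15 and were not called. Their part in the rise of TUA1 was not tested.

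Wall polysaccharide genes fell in 5 of 9 members of the cellulose synthase-like and COBRA list. COB (AT5G60920), needed to lay down oriented cellulose, had levels of 9.16 and 9.0 in air and 7.35 and 7.35 with ethylene and fell 3.32-fold (log2 change -1.73, SE 0.13, adjusted p = 4.07e-05), and CSLA03 (AT1G23480), of a family that makes glucomannan, fell 2.34-fold. CSLD2 (AT5G16910) moved the other way, from 5.76 and 5.13 to 7.62 and 8.0 (5.17-fold higher; log2 change 2.37, SE 0.23, adjusted p = 0.000166). The families that cut or loosen the wall had a few large falls among many genes at low levels. In the xyloglucan endotransglucosylases XTH32 (AT2G36870) had levels of 8.26 and 8.63 in air and 4.49 and 3.85 with ethylene and fell 19.4-fold (log2 change -4.28, SE 0.31, adjusted p = 3.55e-05), and 8 of 10 members were not called. In the endoglucanases of family 9, 4 of 15 fell and 0 rose, beside 14.4% and 17.4% of all named genes. The falls were led by GH9B13 (AT4G02290) (9.28-fold), GH9C2 (AT1G64390) (8.46-fold) and GH9B7 (AT1G75680) (5.07-fold, from 8.27 and 8.61 to 5.88 and 6.31). Among 19 expansins EXPB3 (AT4G28250) fell 9.67-fold and EXLB1 (AT4G17030), of the expansin-like group, rose 7.96-fold, and its 2 air arrays stood apart at 4.13 and 5.22. The number of falls in the cellulose synthase-like and COBRA list was 3 without ethylene replicate 1, ethylene replicate 2, air replicate 1 or air replicate 2.

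Trichome birefringence-like genes, whose products acetylate wall polysaccharides, fell in 5 of 24 cases and rose in 1. The shares over all named genes were 14.4% and 17.4%. TBL36 (AT3G54260) had levels of 8.81 and 8.53 in air and 4.19 and 4.42 with ethylene and fell 20.6-fold (log2 change -4.37, SE 0.36, adjusted p = 6.73e-05), and TBL26 (AT4G01080) fell 7.59-fold. TBL37 (AT2G34070) rose 2.59-fold from 5.96 and 5.51 to 7.09 and 7.12. Beta-glucosidases rose in 4 and fell in 6 of 22 cases, beside 17.4% and 14.4% of all named genes. BGLU44 (AT3G18080) had levels of 9.67 and 9.50 in air and 6.22 and 5.82 with ethylene and fell 11.8-fold (log2 change -3.56, SE 0.18, adjusted p = 6.24e-06), and PYK10 (AT3G09260), the myrosinase of endoplasmic reticulum bodies, had levels of 9.35 and 8.72 in air and 5.14 and 4.68 with ethylene and fell 17.4-fold (log2 change -4.12, SE 0.24, adjusted p = 1.26e-05). BGLU46 (AT1G61820), which frees monolignols from their glucosides, had levels of 3.88 and 3.71 in air and 7.06 and 6.99 with ethylene and rose 9.36-fold (log2 change 3.23, SE 0.34, adjusted p = 0.000221). All 4 jacalin-related lectins measured fell beside PYK10, led by JAL23 (AT2G39330), from 6.59 and 6.06 to 3.15 and 3.32 (8.52-fold). TBL37 was not called without ethylene replicate 1 (adjusted p = 0.058) or ethylene replicate 2 (adjusted p = 0.0649). In the trichome birefringence-like genes the count of rises was 0 without ethylene replicate 1 or ethylene replicate 2. Called falls in the trichome birefringence-like genes numbered 3 without ethylene replicate 1, ethylene replicate 2 or air replicate 2. The number of falls in the jacalin-related lectins was 2 without ethylene replicate 1, ethylene replicate 2 or air replicate 1.

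In the glucosinolate list, which covers sulfur-rich defence compounds and their transporters, 5 of 10 genes fell, PYK10 among them, and 0 rose. Of all named genes 14.4% fell and 17.4% rose. Of the glucosinolate importer genes GTR1 (AT3G47960) had levels of 7.20 and 7.20 in air and 4.50 and 4.99 with ethylene and fell 5.5-fold (log2 change -2.46, SE 0.17, adjusted p = 3.19e-05), while GTR2 (AT5G62680) had levels of 7.75 and 7.59 in air and 8.02 and 8.28 with ethylene and was not called (adjusted p = 0.143), and the difference between them was not tested. AOP1 (AT4G03070) fell 2.99-fold, from 5.25 and 5.32 to 3.63 and 3.78. Among 8 flavonoid genes 3 fell and 0 rose. In flavonoid genes the count of falls was 1 without ethylene replicate 1 or ethylene replicate 2.

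Of 7 WRKY transcription factors measured 3 rose and 0 fell, beside 17.4% and 14.4% of all named genes. WRKY20 (AT4G26640) had levels of 6.32 and 6.33 in air and 6.15 and 6.11 with ethylene and was not called (adjusted p = 0.266). In the IQ-domain family, calmodulin-binding proteins of the microtubules, 4 of 15 fell and 0 rose, led by iqd21 (AT3G49260), which had levels of 6.75 and 6.67 in air and 4.77 and 4.95 with ethylene and fell 3.6-fold (log2 change -1.85, SE 0.14, adjusted p = 4.07e-05), and IQD31 (AT1G74690), which fell 3.35-fold.

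Of 12 leaf and organ shape regulators 8 were not called, and of 40 AGAMOUS-like MADS genes 35 were not called, most of them at levels under 5 on all arrays. The stomatal genes SPCH, MUTE and FMA, which drive the lineage, had levels between 3.56 and 4.91 and were not called. STOMAGEN (AT4G12970), the mesophyll peptide that raises stomatal density, had levels of 6.45 and 6.98 in air and 4.76 and 4.44 with ethylene and fell 4.34-fold (log2 change -2.12, SE 0.20, adjusted p = 0.000133).

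In a short list of 5 ethylene pathway genes 4 rose, beside 17.4% of all named genes, and this was known in part. RTH (AT3G51040), the homologue of the receptor regulator RTE1, had levels of 6.89 and 7.23 in air and 8.12 and 8.29 with ethylene and rose 2.22-fold (log2 change 1.15, SE 0.15, adjusted p = 0.000795), beside RTE1 (AT2G26070), which rose 3.71-fold, and the transcription factor EIN3 went from 8.16 and 7.62 to 10.13 and 10.26. The receptor genes and EIN2 were not analysed here. In other hormone pathways single genes stood out. GID1B (AT3G63010) and GID1C (AT5G27320), gibberellin receptors, went from 3.58 and 3.75 to 5.22 and 5.42 and from 4.66 and 4.72 to 5.45 and 5.70, rises of 3.15-fold and 1.84-fold. IAA18 (AT1G51950), an auxin repressor, had levels of 6.53 and 6.71 in air and 8.59 and 8.33 with ethylene and rose 3.58-fold (log2 change 1.84, SE 0.14, adjusted p = 5.06e-05), and 14 of 18 auxin genes were not called. IAGLU (AT4G15550), named for joining auxin to glucose, rose 13.5-fold from 4.84 and 4.86 to 8.52 and 8.70.

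MYC3 (AT5G46760) rose 2.95-fold from 5.14 and 4.81 to 6.78 and 6.30, and MYC4 (AT4G17880), its partner in jasmonate signalling, fell 2.6-fold from 5.68 and 5.41 to 4.26 and 4.07. The probe set of PDF1.2b (AT2G26020), which may also bind other genes, had levels of 3.84 and 3.71 in air and 6.40 and 6.82 with ethylene and rose 7.12-fold (log2 change 2.83, SE 0.17, adjusted p = 1.41e-05). PDF1.4 (AT1G19610) rose 6.74-fold, and the defensin PDF1.2 was not called. The thionin gene THI2.2 (AT5G36910) had levels of 9.13 and 9.04 in air and 4.76 and 4.83 with ethylene and fell 19.5-fold (log2 change -4.29, SE 0.18, adjusted p = 3.13e-06). JRG21 (AT3G55970), named for its response to jasmonate, rose 15.2-fold. In the list 4 of 12 rose and 2 fell, beside 17.4% and 14.4% of all named genes.

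**Figure D4:**
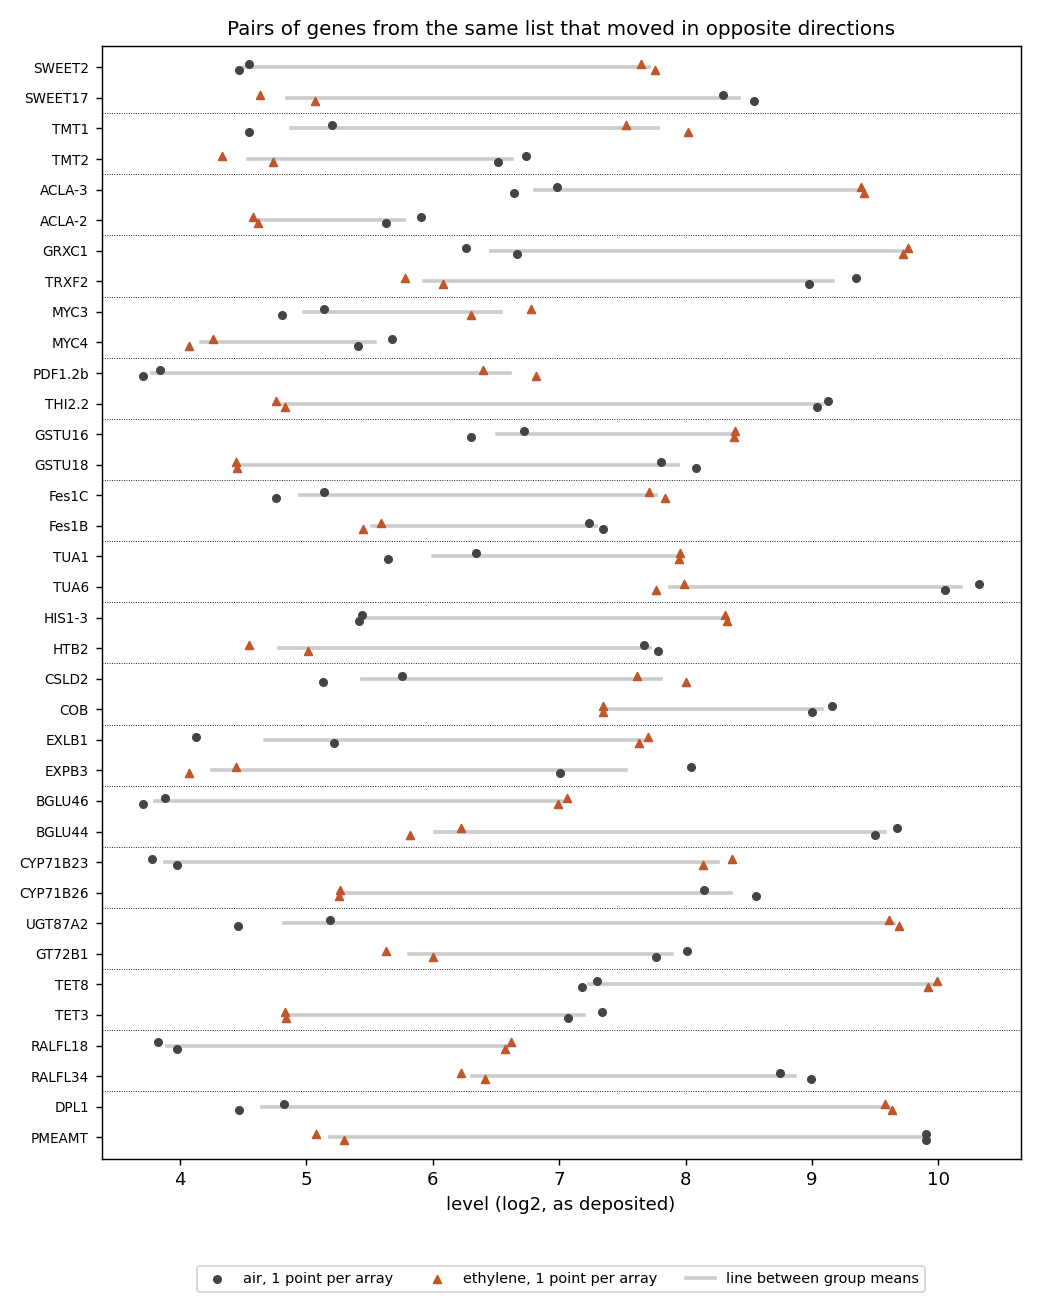
Log2 level on each air array (black circles) and each ethylene array (orange triangles) for 18 pairs of genes from the same list that moved in opposite directions, chosen after their values were seen and separated by dotted lines. In each pair 1 gene is higher and 1 is lower with ethylene, for example SWEET2 (3.19) and SWEET17 (-3.56), with no overlap between the arrays of the groups. Such a lack of overlap held for 66.4% of all probe sets.

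Among transcription factors the bZIP list had 6 rises and 1 fall in 24 genes, beside 17.4% and 14.4% of all named genes. BZIP53 (AT3G62420), known to activate proline dehydrogenase and asparagine synthetase genes in low energy, had levels of 7.34 and 6.53 in air and 9.58 and 9.51 with ethylene and rose 6.11-fold (log2 change 2.61, SE 0.27, adjusted p = 0.000204). Of 7 bHLH factors of iron deficiency bHLH121 (AT3G19860) rose 2.84-fold from 7.26 and 7.01 to 8.58 and 8.70, and bHLH115 (AT1G51070), with levels of 7.96 and 8.37 in air and 6.45 and 6.46 with ethylene, fell 3.27-fold (log2 change -1.71, SE 0.17, adjusted p = 0.000162). PYE (AT3G47640), a regulator induced when iron is short, had levels of 4.91 and 4.73 in air and 4.84 and 5.30 with ethylene and was not called (adjusted p = 0.37). Called rises in the bZIP list numbered 2 without ethylene replicate 2 and 3 without air replicate 1. The number of falls in the bZIP list was 0 without ethylene replicate 1 or ethylene replicate 2 and 3 without air replicate 1.

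Of 8 calmodulin-like genes 4 rose and 0 fell, beside 17.4% and 14.4% of all named genes. CML41 (AT3G50770) had levels of 4.05 and 4.43 in air and 9.31 and 9.14 with ethylene and rose 31.6-fold (log2 change 4.98, SE 0.18, adjusted p = 1.8e-06). CML30 (AT2G15680) rose 3.47-fold, from 4.90 and 4.52 to 6.52 and 6.49. Of 8 glutamate receptor-like channels 7 were not called. Among peptide signals of the RALF type RALFL18 (AT2G33130) rose 6.46-fold from 3.83 and 3.98 to 6.62 and 6.57, RALFL34 (AT5G67070) and RALFL24 (AT3G23805) fell 5.87-fold and 3.98-fold, and 7 of 10 were not called. Among tetraspanins, membrane proteins of which TET8 marks secreted vesicles, TET8 (AT2G23810) had levels of 7.30 and 7.18 in air and 9.99 and 9.92 with ethylene and rose 6.6-fold (log2 change 2.72, SE 0.26, adjusted p = 0.000144), and TET3 (AT3G45600) fell 5.16-fold from 7.34 and 7.07 to 4.83 and 4.84.

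Of 51 UDP-glycosyltransferases 15 rose and 8 fell, beside 17.4% and 14.4% of all named genes. UGT87A2 (AT2G30140) had levels of 5.19 and 4.46 in air and 9.61 and 9.69 with ethylene and rose 28.4-fold (log2 change 4.83, SE 0.23, adjusted p = 5.19e-06). UGT76B1 (AT3G11340), which glucosylates isoleucic acid and modulates defence, had levels of 3.74 and 3.83 in air and 5.68 and 6.20 with ethylene and rose 4.44-fold (log2 change 2.15, SE 0.18, adjusted p = 7.59e-05). GT72B1 (AT4G01070), which glucosylates chlorinated phenols and monolignols, had levels of 8.01 and 7.77 in air and 5.63 and 6.0 with ethylene and fell 4.23-fold (log2 change -2.08, SE 0.18, adjusted p = 8.19e-05). The flavonol glycosyltransferase gene UGT78D1 (AT1G30530) fell 2.54-fold, from 5.83 and 5.63 to 4.43 and 4.35. In the glycosyltransferases the count of falls was 4 without ethylene replicate 1 and 5 without ethylene replicate 2 or air replicate 1.

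The CYP71B cytochromes P450 rose in 4 and fell in 2 of 18 cases, beside 17.4% and 14.4% of all named genes. CYP71B23 (AT3G26210) had levels of 3.78 and 3.98 in air and 8.37 and 8.14 with ethylene and rose 20.8-fold (log2 change 4.38, SE 0.15, adjusted p = 1.74e-06), CYP71B22 (AT3G26200) rose 9.55-fold, and CYP71B26 (AT3G26290) had levels of 8.15 and 8.56 in air and 5.27 and 5.26 with ethylene and fell 8.54-fold (log2 change -3.09, SE 0.16, adjusted p = 7.49e-06). All 3 lie on chromosome 3 with locus numbers close together, and no coordinates were used. In the phenylpropanoid list CCOAMT (AT1G67980), a caffeoyl-CoA methyltransferase, went from 3.54 and 3.70 to 7.74 and 7.64 (16.8-fold higher), whereas HCT (AT5G48930), the transferase at the branch to lignin, had levels of 9.97 and 9.89 in air and 7.87 and 7.55 with ethylene and fell 4.66-fold (log2 change -2.22, SE 0.19, adjusted p = 8.07e-05). In membrane lipids PMEAMT (AT1G48600), a methyltransferase on the way to phosphatidylcholine, had levels of 9.90 and 9.90 in air and 5.08 and 5.30 with ethylene and fell 26.2-fold (log2 change -4.71, SE 0.14, adjusted p = 1.18e-06). DPL1 (AT1G27980), the lyase that breaks down long-chain sphingoid bases, had levels of 4.82 and 4.47 in air and 9.58 and 9.63 with ethylene and rose 31.1-fold (log2 change 4.96, SE 0.15, adjusted p = 1.18e-06). The ethylene and air arrays did not overlap for either gene, nor for 66.4% of all probe sets.

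Of 15 cold and dehydration genes 6 fell and 3 rose, beside 14.4% and 17.4% of all named genes. HVA22C (AT1G69700) had levels of 6.77 and 7.19 in air and 4.51 and 4.46 with ethylene and fell 5.63-fold (log2 change -2.49, SE 0.18, adjusted p = 3.66e-05), while DI19 (AT1G56280), a zinc-finger protein of drought, had levels of 10.61 and 10.40 in air and 11.84 and 11.65 with ethylene and rose 2.37-fold (log2 change 1.24, SE 0.14, adjusted p = 0.000361). The late embryogenesis genes LEA4-5, AtLEA4-1, LEA18 and LEA, named after their values were seen, had levels between 3.37 and 4.45 and were not called.

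**Figure D5:**
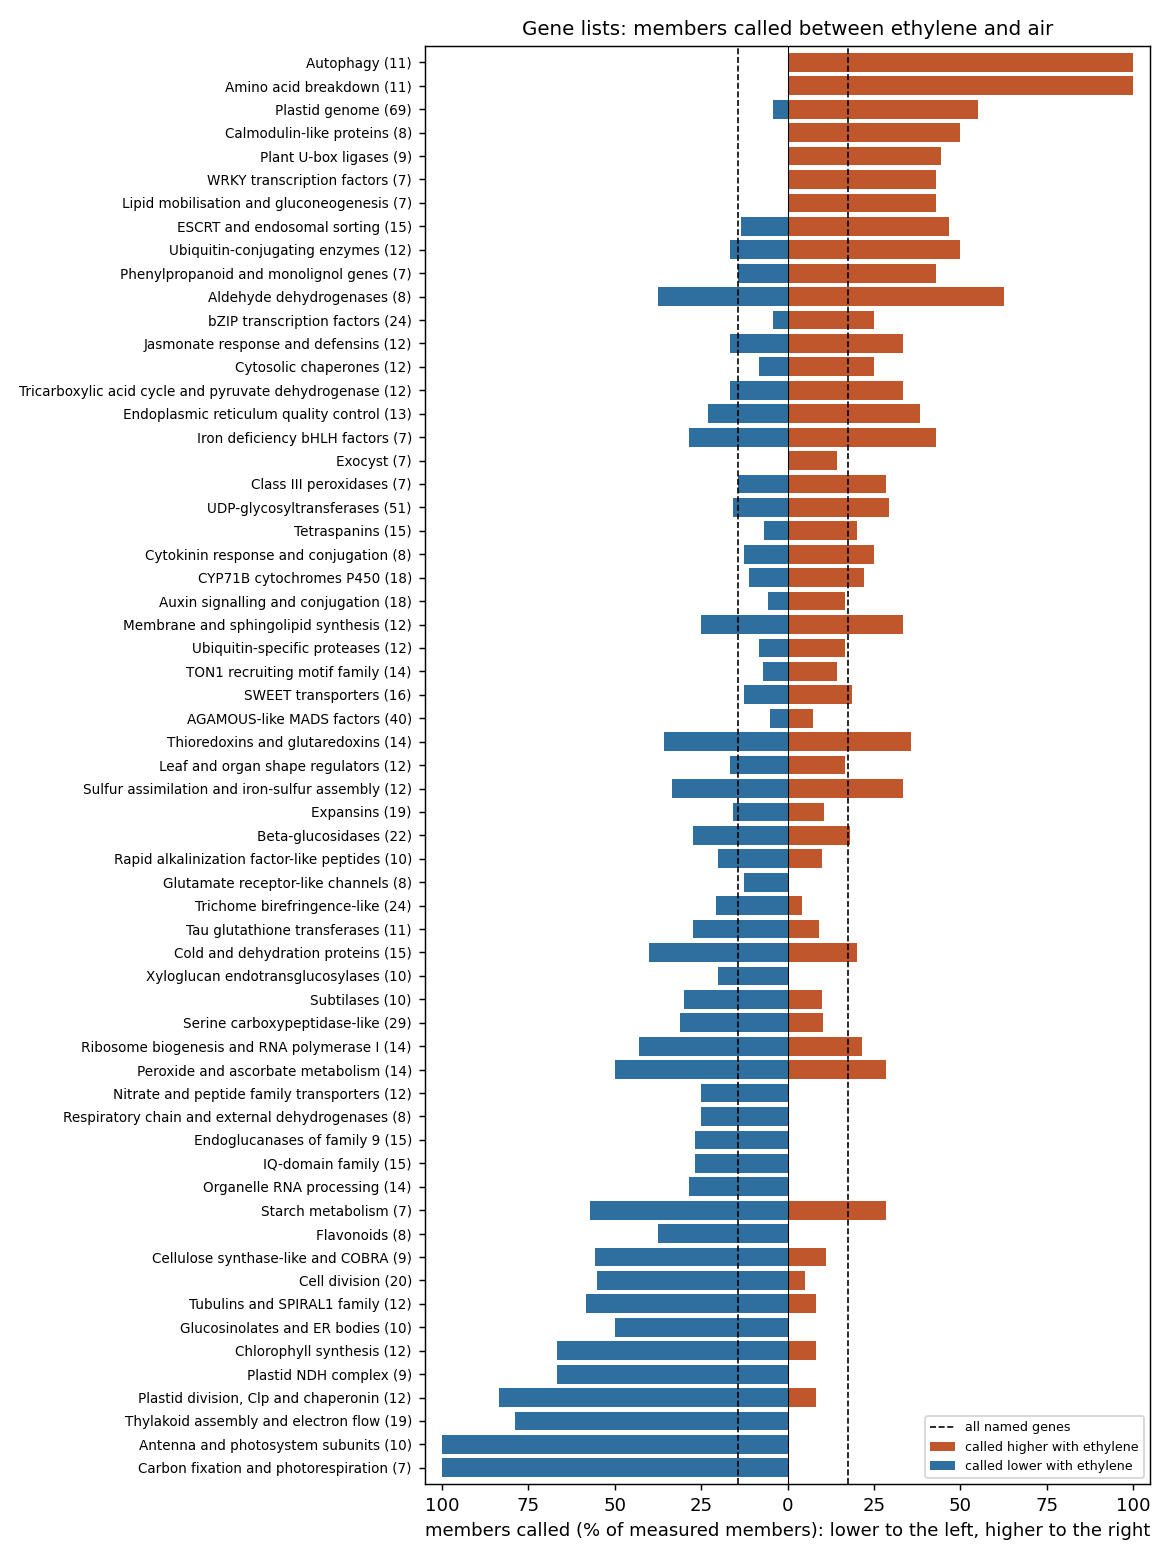
Share of measured members called higher (orange, right) and lower (blue, left) with ethylene for each gene list with at least 7 measured members, with the number of members in brackets and the share over all named genes as dashed lines (17.4% higher, 14.4% lower). Autophagy and amino acid breakdown have every measured member higher, the antenna, photosystem and carbon fixation lists have every measured member lower, and many families in between hold both directions.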

How the data were processed

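Total RNA of 6 Affymetrix ATH1 arrays (biotin label, scaled-down labelling reaction, per the labels' protocols) was analysed from the deposited series table, which holds 1 log2 value per probe set and array. The log2 scale was read from the range of the deposited values. The submitters' processing notes name limma, while background correction, summarisation, normalization and genome build were not given in the sources used here. The labels call the arrays of a group biological replicates without naming separate plants or cultures, so p-values measure the spread between these arrays. Depth has no meaning for arrays, and the number of arrays, 2 per group, limits the precision.

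After leaving out 7 control probe sets, limma 3.58.1 in R 4.3.3 (lmFit, eBayes, two-sided) was fitted to 22746 probe sets on all 6 arrays with 1 mean per group and no covariate. Calls were made at a Benjamini-Hochberg adjusted p under 0.05. The residual degrees of freedom were 3 and the prior ones 4.15. Genes were named from the platform annotation, which gives 13513 probe sets 1 gene, 503 several and 8730 none. Of the first, 13436 matched a locus of RefSeq's TAIR10.1, used for names only. The probe set with the highest mean stood for each of 13286 loci, and 4 of 929 list genes rest on a probe set that may also bind other genes. The 77 gene lists, described by counts and medians with no set test, and the genes of the text were chosen with earlier results of these data known. Within a list the text names up to 4 called genes with the largest difference in the main direction, up to 2 in the other, the gene highest in air and up to 2 genes not called, or any gene of a list of at most 12. Alternatives covered normalization, a filter on low values, the arrays in the fit, the eBayes options, the replicate number, single arrays left out, the threshold and the choice of probe set. The procedure was tested on simulated data with far fewer and mostly larger differences than those called here. That test cannot give the rate of false calls in these data.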

Additional observations from a re-analysis of the deposited data

How the results depend on the processing

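The number of called probe sets, 8185 in the reported fit (4291 higher, 3894 lower), lay between 7886 and 8512 under quantile normalization, median centring, leaving out the lowest 40% of probe sets, fitting the 4 Col-0 arrays alone, and the trend and robust options. With the replicate number as a replicate block it was 7747. Same-numbered arrays share only a number, since their deviations from the group means correlated at -0.137 between air and ethylene, -0.169 between air and amiR-ETP1/2 and 0.0686 between ethylene and amiR-ETP1/2. With 1 array left out the counts were 5980 to 8512 in all, 3080 to 4428 higher and 2847 to 4084 lower, where a lone array is assumed to vary like the other groups. An adjusted p under 0.01 left 6016, and a change of at least 2-fold left 4879, with 2533 higher and 2346 lower. The higher share of called probe sets was 50.4% to 54.4% over all of these. Of the called genes in the text, HEMA2 was not called with the trend and robust options (adjusted p = 0.0518), and no other locus named there lost its call under these normalizations, the filter where it kept the gene, the Col-0 arrays alone, these options or the replicate block. VPS2.1 was called under quantile normalization (adjusted p = 0.0487) and with the Col-0 arrays alone (adjusted p = 0.0192), GTR2 with the Col-0 arrays alone (adjusted p = 0.0397), and atpE under quantile normalization (adjusted p = 0.0104) and with the trend and robust options (adjusted p = 0.0147), as was PLIM2a with the latter (adjusted p = 0.0277). Leaving out the lowest 40% of probe sets, which tests fewer genes, left 7 falls in cell division and 9 rises in glycosyltransferases, and the replicate block left 5 falls in glycosyltransferases. No called gene in the text reversed its direction under these settings. Genes that were not called did when single arrays were left out, with differences of -0.03 to 0.28 for FMA, -0.21 to 0.09 for LEA4-5, -0.17 to 0.13 for MUTE, -0.07 to 0.10 for SDP1-LIKE, -0.01 to 0.27 for SPCH, -0.05 to 0.33 for TMT3 and -0.01 to 0.10 for hemb2. Exact permutation of 2 against 2 arrays cannot go below p = 0.333, so calls rest on the spread pooled by limma over probe sets. Calls were rare at low levels, where a gene not called is not shown to be the same in both groups. The exposure time, 4 h or 24 h, was not settled.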
